A study of Danio rerio with 24 samples.

Results

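The genes of the sodium potassium ATPase (Na+/K+-ATPase) were followed through ablation and regeneration of the zebrafish retinal pigment epithelium (RPE). The members are 10 genes taken by name, the alpha subunit genes *atp1a1a.1*, *atp1a1b*, *atp1a2a*, *atp1a3a* and *atp1a3b* and the beta subunit genes *atp1b1a*, *atp1b1b*, *atp1b2a*, *atp1b3b* and *atp1b4*. All 10 were found in both deposited tables, out of 25281 genes. Of these, 8 had enough counts to be tested and 2, *atp1a2a* and *atp1b1b*, did not. They were chosen by name and not by a threshold, but with the fold changes and p-values of these libraries known, and several of them stand in the study's own lists of rapamycin-responsive genes, which were selected on the MTZ+ rapamycin against MTZ+ DMSO difference in the same libraries. The tests therefore describe how these genes behaved and are no independent support for having chosen them.

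RNA was sequenced from eGFP+ cells sorted from eyes of *rpe65a*:nfsB-eGFP larvae in 24 libraries, 8 groups of 3. In this line the *rpe65a* promoter drives a fusion of nitroreductase and eGFP, so the sort takes whichever cells carry the transgene's product, and every group carries it. Ablated larvae (MTZ+) received metronidazole (10 mM) at 5dpf, which nitroreductase turns into a toxin, and unablated siblings (MTZ-) did not. The 4 groups of each time point were MTZ+ larvae with rapamycin (2 μM, an mTOR inhibitor), MTZ+ larvae with the vehicle DMSO, MTZ- larvae with rapamycin and MTZ- larvae with DMSO. The study added drugs 24 hours before metronidazole and, as described for its inhibitor treatments, kept them until larvae were collected. Exposure was therefore longer at 4dpi than at 2dpi. The later time point was 4dpi (9dpf) and the earlier one 2dpi (7dpf). All groups were raised in phenylthiourea, which blocks pigmentation, up to ablation. A library came from about 80 eyes of about 40 pooled larvae and at most 1000 sorted cells, so the spread between libraries is one between pools. In bulk RNA of sorted cells, fewer cells of a type and less RNA per cell cannot be told apart.

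The Na+/K+-ATPase is a P-type ATPase that moves sodium out of the cell and potassium into it. Its alpha subunit binds ATP and the ions and does the catalytic work, and its glycosylated beta subunit is needed for folding of the alpha subunit and its delivery to the membrane. In the vertebrate RPE the pump lies mainly in the apical membrane facing the photoreceptors, whereas most epithelia carry it basolaterally. The sodium gradient it maintains drives transport across the epithelium, and its exchange of potassium serves the space around the photoreceptor outer segments.

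Total counts per library ran from 20607731 to 37189527, and at 2dpi the MTZ+ rapamycin libraries (30099569 to 33336362) lay above the MTZ+ DMSO libraries (22230490 to 23195175). All 9 RPE marker genes were detected in each group, with sums of 16046 to 118707 CPM (counts scaled to library size) per library. Markers of other cell types of the eye were present too: summed levels were 531 to 12589 CPM over 5 Müller glia genes, 55.0 to 14362 CPM over 8 photoreceptor genes, 10.9 to 356 CPM over 8 neuronal genes, 23.8 to 568 CPM over 5 bipolar cell genes and 2.48 to 112 CPM over 4 ganglion cell genes. Sums reached at most 5.0 CPM for 5 ionocyte genes, 12.1 CPM for 4 lens genes, 10.4 CPM for 4 endothelial genes, 44.0 CPM for 4 erythrocyte genes, 117 CPM for 7 leukocyte genes, 134 CPM for 7 muscle genes and 1230 CPM for 5 epidermal genes. The Müller glia list held *gfap*, *glula*, *slc1a2b*, *fabp7a* and *rlbp1a*, and whether each of these is confined to Müller glia, and absent from RPE, was not tested. A pair of libraries stood apart by its labels and totals. In replicate 2 of the MTZ+ groups at 4dpi, the letters in the raw file names were crossed between the DMSO and rapamycin libraries, and their totals (23743339 with rapamycin, 30716905 with DMSO) ran opposite to those of replicates 1 and 3 (33669100 and 37189527 with rapamycin, 20607731 and 20950454 with DMSO). The deposited labels were kept, and the calls of the members that rest on these libraries are given with and without them.

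The pump genes differed in level over several orders of magnitude. In deposited TPM, which corrects for gene length and so allows genes to be compared, *atp1b1a* had the highest mean over the 24 libraries at 3813 TPM (1846 to 5455) and *atp1a1a.1* came next at 1670 TPM (464 to 3242). They ranked 30 and 75 among all 25281 genes. *atp1b1a* encodes the beta1 subunit, the usual partner in epithelia, and *atp1a1a.1* encodes an alpha1 catalytic subunit that is required for development of the zebrafish heart. The remaining members averaged 43.3 TPM for *atp1a1b* (alpha1), 41.2 TPM for *atp1b3b* (beta3), 25.5 TPM for *atp1b4* (beta4), 22.1 TPM for *atp1b2a* (beta2), 10.1 TPM for *atp1a3b* and 8.29 TPM for *atp1a3a* (both alpha3). Neighbours in this order were not all separable: *atp1a1b* exceeded *atp1b3b* in 11 of 24 libraries, *atp1b4* exceeded *atp1b2a* in 10 and *atp1a3b* exceeded *atp1a3a* in 13, whereas *atp1b3b* exceeded *atp1b4* in 21 and the 2 highest genes kept their places in all 24. *atp1a2a* (alpha2, in mammals a subunit of glia and muscle) had 0 to 7 counts per library and *atp1b1b* (beta1) 0 to 9. Both are at the limit of detection, since 3 counts correspond to 0.0807 to 0.146 CPM: *atp1a2a* was above 3 counts in 17 of 24 libraries and *atp1b1b* in 3, with 0 counts in 19.

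The 10 genes lie on 9 chromosomes of GRCz11. *atp1b4* spans chr14:33458294-33469953 on the plus strand, *atp1a1b* chr9:35901554-35922201 on the plus strand and *atp1b3b* chr15:4353161-4415917 on the minus strand. *atp1a3a* spans chr19:6328234-6385594 on the minus strand, *atp1a3b* chr16:10776688-10820909 on the plus strand and *atp1b2a* chr23:44732863-44763861 on the plus strand. *atp1b1a* spans chr6:29217392-29227487 on the plus strand and *atp1a1a.1* chr1:1712140-1793371 on the plus strand. *atp1a1a.1* lies in a tandem cluster of related alpha1 genes (*atp1a1a.1* to *atp1a1a.5*) and overlaps *atp1a1a.2* on the same strand. How reads aligning to several genes were counted was not stated, so the split within that cluster is uncertain. Summing the 5 genes changed no call of a member.

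**Figure D1:**
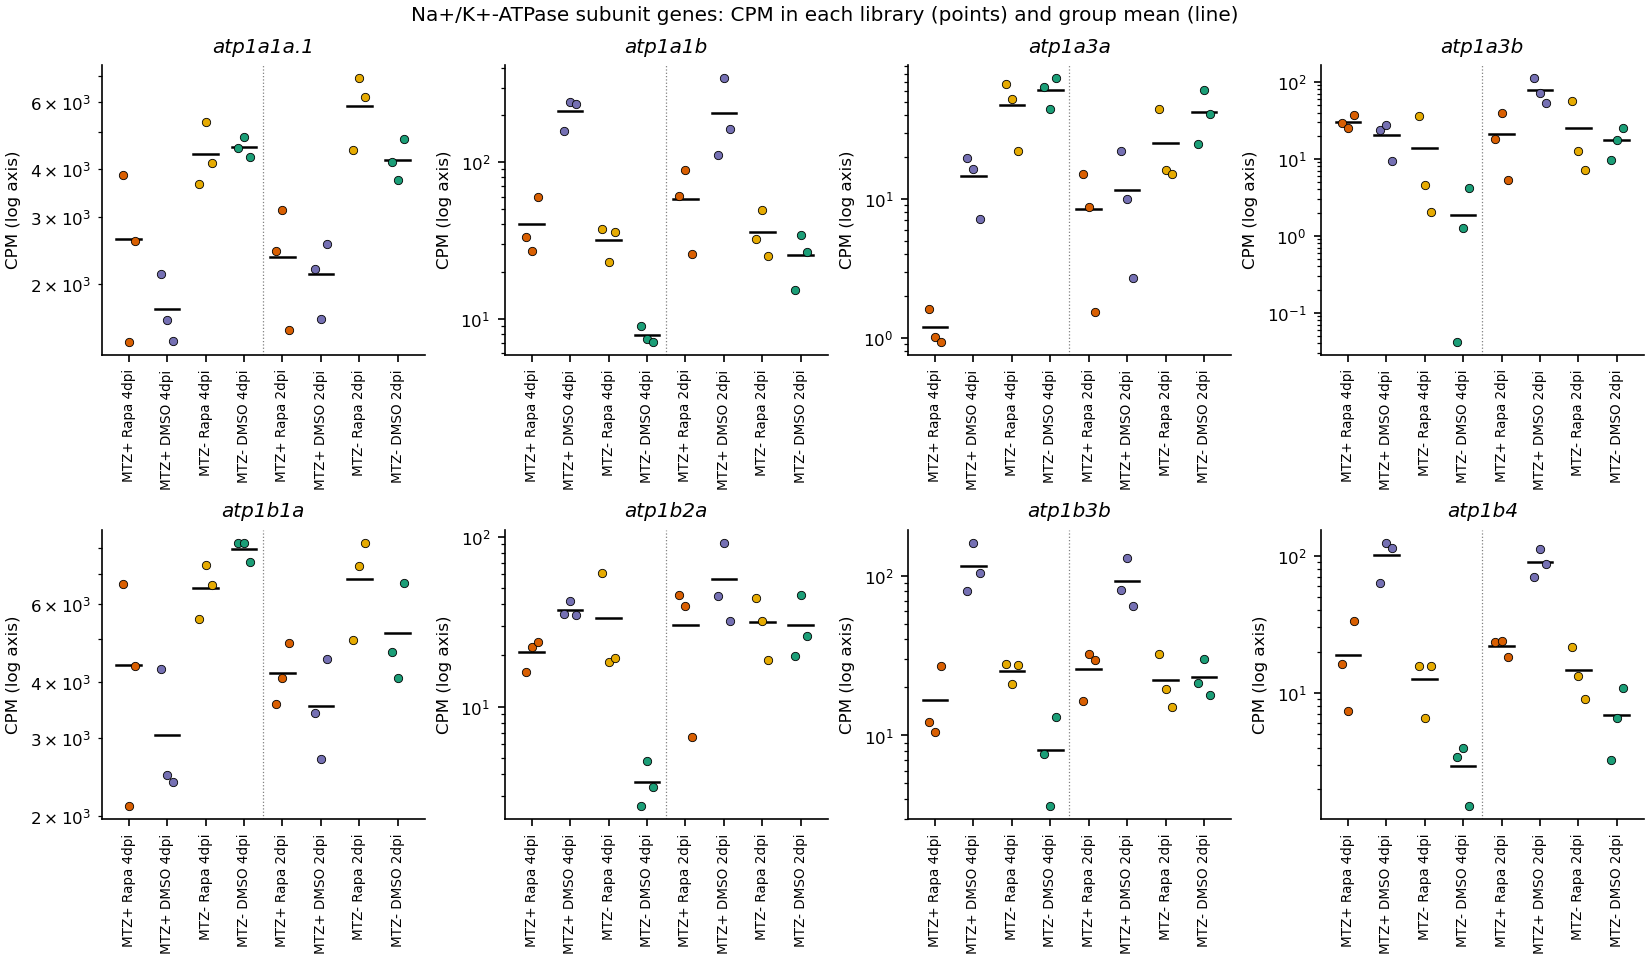
CPM of the 8 tested subunit genes in each of the 24 libraries (points, log axis) with the mean of each group (line), 4dpi groups left of the dotted line and 2dpi groups right of it. For *atp1a1b*, *atp1b3b* and *atp1b4* the MTZ+ DMSO groups stand above every other group of the same time point, while for *atp1a1a.1* and *atp1b1a* the 4dpi MTZ+ DMSO libraries stand below the MTZ- DMSO libraries.

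The first comparison asked how the pump genes differ in cells sorted from ablated and from unablated eyes, without rapamycin. At 4dpi all 8 tested members were called. A call needs a log2 fold change beyond 1 in either direction, an adjusted p under 0.05 in edgeR's quasi-likelihood test (Benjamini-Hochberg, over all genes tested) and at least 1 TPM on average in the higher group. Of the 17515 genes tested in this comparison, 23.5% were called, 14.3% higher and 9.14% lower. The 2 abundant genes *atp1a1a.1* and *atp1b1a* and the much rarer *atp1a3a* were lower in MTZ+ larvae, and the 5 others were higher. The median log2 fold change was 0.27 over all tested genes.

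*atp1b4* changed most. In zebrafish and other non-mammalian vertebrates its product is a pump subunit, whereas in placental mammals it became a muscle protein of the inner nuclear membrane. It measured 63.2, 124 and 114 CPM in the 3 MTZ+ DMSO libraries, against 3.41, 3.95 and 1.51 CPM in MTZ- DMSO libraries. All ablated libraries were far above all unablated ones, and the log2 fold change was 5.16 ± 0.64 (SE, n = 3 each), 35.8-fold, with an adjusted p of 0.000468. *atp1a1b* measured 158, 243 and 236 CPM in MTZ+ DMSO libraries, against 8.92, 7.38 and 7.13 CPM in MTZ- DMSO libraries. The unablated libraries were close to each other, and the log2 fold change was 4.84 ± 0.36 (28.6-fold, adjusted p = 7.22e-05). *atp1b3b* measured 80.9, 162 and 104 CPM in MTZ+ DMSO libraries, against 7.62, 3.62 and 13.1 CPM in MTZ- DMSO libraries. The lowest ablated library was above the highest unablated one, and the log2 fold change was 3.91 ± 0.52 (15.0-fold, adjusted p = 0.000605).

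The other beta gene that rose was *atp1b2a*, whose mammalian counterpart was first described as an adhesion molecule on glia. It had 34.9, 42.1 and 34.5 CPM in MTZ+ DMSO libraries, against 2.61, 4.79 and 3.38 CPM in MTZ- DMSO libraries. Both groups were tight and apart, with a log2 fold change of 3.44 ± 0.48 (10.9-fold, adjusted p = 0.000789). *atp1a3b* belongs to the alpha3 genes, which in mammals are mainly neuronal. It had 23.9, 27.6 and 9.30 CPM in MTZ+ DMSO libraries, against 0.0421, 1.28 and 4.22 CPM in MTZ- DMSO libraries. The unablated libraries held 1, 35 and 115 counts and so spread over 2 orders of magnitude. The log2 fold change of 3.52 ± 1.2 (adjusted p = 0.0448) was past the threshold by little, and the adjusted p was 0.0876 with the replicate number as a block and 0.105 without the MTZ+ libraries of replicate 2. The adjusted p was 0.102, 0.0799 and 0.0549 without MTZ+ DMSO replicate 2, 1 or 3 and 0.0887 and 0.128 without MTZ- DMSO replicate 1 or 2. Without MTZ- DMSO replicate 3 the log2 fold change was 4.98 (adjusted p = 0.0310).

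The abundant pair fell. *atp1a1a.1* had 2119, 1611 and 1419 CPM in MTZ+ DMSO libraries, against 4541, 4850 and 4294 CPM in MTZ- DMSO libraries, and its log2 fold change was -1.33 ± 0.33 (adjusted p = 0.0113). *atp1b1a* had 4283, 2477 and 2393 CPM in MTZ+ DMSO libraries, against 8222, 8189 and 7431 CPM in MTZ- DMSO libraries. No ablated library reached the lowest unablated one for either gene. The log2 fold change of *atp1b1a* was -1.30 ± 0.37 (adjusted p = 0.0229), and it lost its call when 1 library was left out in 4 cases, with adjusted p of 0.0863 without MTZ+ DMSO replicate 2, 0.0802 without MTZ+ DMSO replicate 3, 0.0548 without MTZ- DMSO replicate 1 and 0.0560 without MTZ- DMSO replicate 2. *atp1a3a*, the second alpha3 gene, had 19.9, 16.5 and 7.16 CPM in MTZ+ DMSO libraries, against 64.1, 44.4 and 73.8 CPM in MTZ- DMSO libraries. The 2 alpha3 genes thus moved in opposite directions, and the log2 fold change of *atp1a3a* was -1.98 ± 0.47 (3.95-fold lower, adjusted p = 0.00905).

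With both MTZ+ libraries of replicate 2 left out, *atp1a3b* was the 1 member of the 8 that was no longer called, where 18.9% of genes were called. The log2 fold change was then 4.98 for *atp1b4*, 4.73 for *atp1a1b*, 3.58 for *atp1b3b*, 3.34 for *atp1b2a*, -1.29 for *atp1a1a.1*, -1.17 for *atp1b1a* and -2.09 for *atp1a3a*, with adjusted p between 0.000234 and 0.0270.

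Markers of other cells moved in the same comparison. At 4dpi, 4 of 9 RPE markers were lower in MTZ+ DMSO libraries, with summed levels of 25135 to 46133 CPM, against 69493 to 79886 CPM in MTZ- DMSO libraries. Of the genes listed as Müller glia markers, 4 of 5 were higher (*gfap*, *slc1a2b*, *fabp7a* and *rlbp1a*). Whether the RNA of *rlbp1a* or the others came from Müller glia alone was not tested. The sum of the list, most of which is *glula*, was 8526 to 11846 CPM, against 9907 to 12589 CPM in MTZ- DMSO libraries. Neuronal markers were higher for 5 of 8 (80.4 to 177 CPM, against 21.7 to 33.0 CPM in MTZ- DMSO libraries, where 1 marker was at 0), bipolar markers for 3 of 5 (151 to 418 CPM, against 96.3 to 117 CPM), photoreceptor markers for 2 of 8 (458 to 1347 CPM, against 86.7 to 497 CPM) and ganglion cell markers for 1 of 4 (79.1 to 112 CPM, against 2.48 to 10.3 CPM with 1 marker at 0). Markers of ionocytes, cells rich in this pump, summed to 1.98 to 2.62 CPM in MTZ+ DMSO libraries, against 0.257 to 0.731 CPM in MTZ- DMSO libraries. Of the epidermal markers 1 of 5 was called higher (*epcam*, 24.5-fold) and 1 lower (*krt97*, 27.6-fold), and 1 of 7 muscle markers was called higher. The part of these other cells in the changes of the pump genes was not tested.

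At 2dpi the same comparison called 3 members, all higher in MTZ+ larvae, where 21.2% of 17536 tested genes were called and 11.3% were called higher. *atp1b4* had 69.5, 112 and 86.5 CPM in MTZ+ DMSO libraries, against 3.27, 6.59 and 10.9 CPM in MTZ- DMSO libraries. Its log2 fold change of 3.71 ± 0.44 (13.1-fold, adjusted p = 9.23e-05) had the smallest adjusted p of the members. *atp1a1b* had 110, 343 and 164 CPM in MTZ+ DMSO libraries, against 15.3, 34.1 and 26.8 CPM in MTZ- DMSO libraries, a log2 fold change of 3.03 ± 0.53 (8.19-fold, adjusted p = 0.00125) that was 2.42 (adjusted p = 0.00481) without MTZ+ DMSO replicate 2. *atp1b3b* had 82.2, 130 and 64.7 CPM in MTZ+ DMSO libraries, against 21.3, 30.0 and 18.0 CPM in MTZ- DMSO libraries. The groups were apart for all 3 genes, and *atp1b3b* was 4.05-fold higher (log2 2.02 ± 0.38, adjusted p = 0.00197).

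The other 5 tested members were not called at 2dpi. *atp1a1a.1* had 2196, 1625 and 2551 CPM in MTZ+ DMSO libraries, against 4170, 3739 and 4789 CPM in MTZ- DMSO libraries. It passed on its adjusted p (0.0309) and not on its size, since the log2 fold change of -0.97 ± 0.30 lies just inside the limit of 1. It was called without MTZ- DMSO replicate 2 (-1.08, adjusted p = 0.0422) or without MTZ+ DMSO replicate 3 (-1.18, adjusted p = 0.0325). *atp1a3b* had 111, 72.4 and 53.7 CPM in MTZ+ DMSO libraries, against 9.52, 17.7 and 24.9 CPM in MTZ- DMSO libraries. The groups did not overlap, yet the log2 fold change of 2.21 ± 0.83 had an adjusted p of 0.0752. It was called by DESeq2 (2.19, adjusted p = 0.00967) and in a fit of the compared groups only (2.24, adjusted p = 0.0061). *atp1a3a* had 22.1, 9.96 and 2.71 CPM in MTZ+ DMSO libraries, against 25.0, 60.9 and 41.0 CPM in MTZ- DMSO libraries, with a log2 fold change of -1.84 ± 0.84 (adjusted p = 0.139) that was called only with the replicate number as a block (-2.45, adjusted p = 0.0197) and by DESeq2 (-1.86, adjusted p = 0.0443). With these alpha3 genes DESeq2 called 5 members, where it called 24.8% of all genes with an adjusted p. For *atp1b1a* (log2 fold change -0.52 ± 0.29, adjusted p = 0.227) and *atp1b2a* (0.91 ± 0.62, adjusted p = 0.335) the libraries of both groups overlapped. All 9 RPE markers were lower in MTZ+ DMSO libraries at 2dpi (16046 to 31600 CPM, against 69071 to 87366 CPM) and 3 of 5 Müller glia markers were higher (5338 to 7875 CPM in sum, against 6530 to 10695 CPM), while 1 of 5 bipolar and 1 of 7 leukocyte markers were higher, 1 of 8 photoreceptor and 1 of 7 muscle markers lower and 1 of 5 epidermal markers was called in each direction. The part of these cells in the results was not tested.

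**Figure D2:**
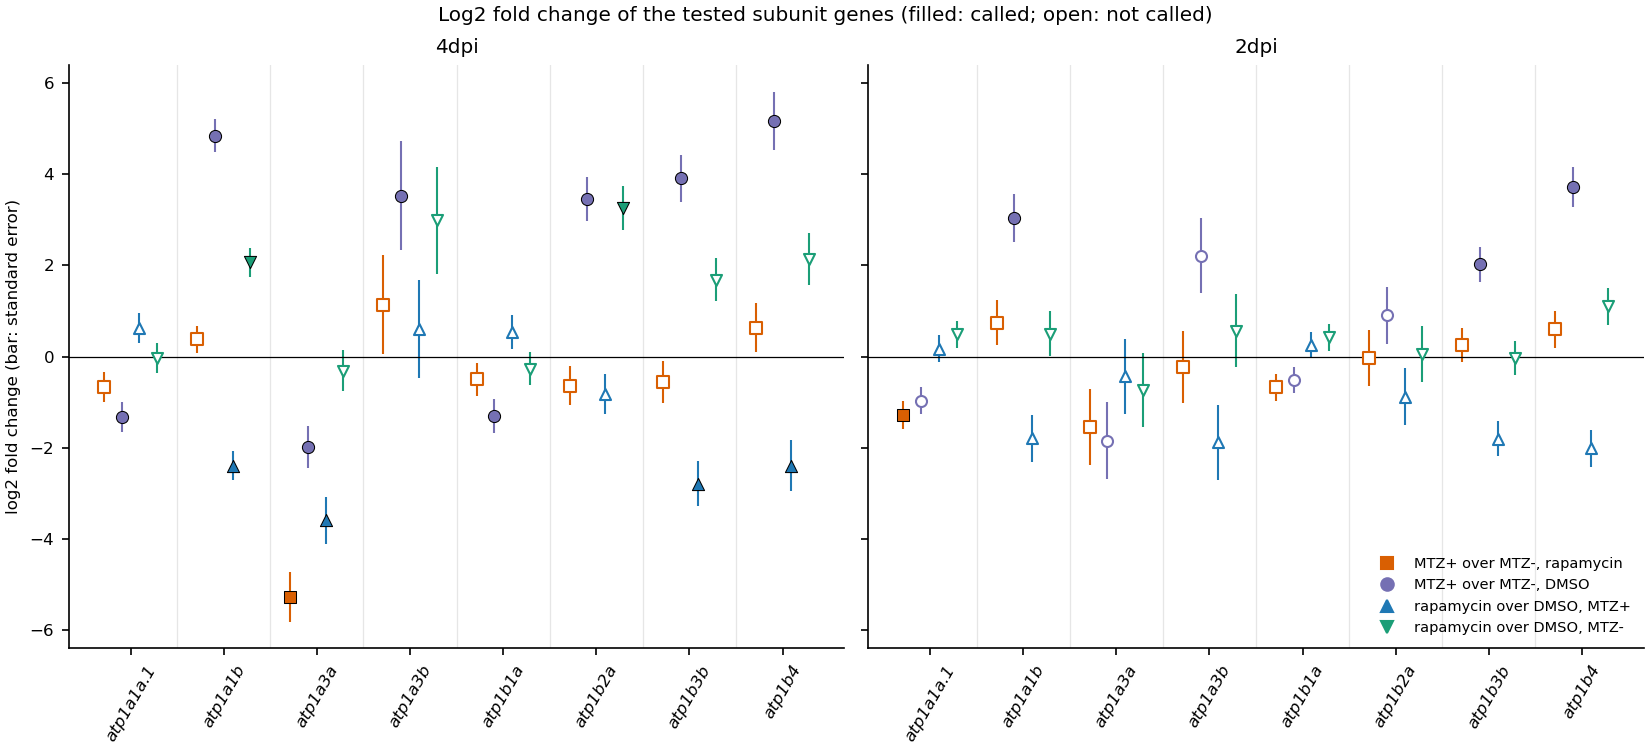
Log2 fold changes of the 8 tested members (points) with standard errors (bars) at 4dpi (left) and 2dpi (right), for MTZ+ over MTZ- larvae with rapamycin (squares) and with DMSO (circles) and for rapamycin over DMSO in MTZ+ (upward triangles) and MTZ- larvae (downward triangles); filled symbols were called. With DMSO at 4dpi every circle is filled, *atp1b4* (5.16) and *atp1a1b* (4.84) being highest, and of the squares at 4dpi only that of *atp1a3a* (-5.26) is.

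The same contrast in rapamycin-treated larvae asked whether these differences appear when mTOR is inhibited. At 4dpi, 1 member was called, *atp1a3a*, where 15.6% of all tested genes were called and 6.94% were called lower. It had 1.63, 1.02 and 0.940 CPM in MTZ+ rapamycin libraries, against 67.2, 52.8 and 22.1 CPM in MTZ- rapamycin libraries. No MTZ+ library came near an MTZ- library, and the log2 fold change was -5.26 ± 0.55 (38.3-fold lower, adjusted p = 0.000599). The neuronal markers were also low in these libraries, with 10.9 to 26.8 CPM in MTZ+ rapamycin, against 60.5 to 356 CPM in MTZ- rapamycin, and 2 of 8 were called lower. Photoreceptor markers summed to 241 to 409 CPM, against 485 to 7863 CPM, and 3 of 8 were called lower, with 2 of 5 bipolar, 1 of 5 Müller glia and 1 of 9 RPE markers. Of the epidermal markers 2 of 5 were called higher and 1 lower, and 1 of 7 leukocyte markers was higher. Their part in the fall of *atp1a3a* was not tested. It was again the 1 called member without both MTZ+ libraries of replicate 2 (-5.15, adjusted p = 0.00328), where 9.2% of genes were called.

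Genes that stood far apart with DMSO were close with rapamycin. The log2 fold change between MTZ+ and MTZ- rapamycin libraries at 4dpi was 0.63 ± 0.54 for *atp1b4* (adjusted p = 0.442), 0.37 ± 0.30 for *atp1a1b* (adjusted p = 0.416), -0.56 ± 0.46 for *atp1b3b* (adjusted p = 0.425) and -0.63 ± 0.44 for *atp1b2a* (adjusted p = 0.333). *atp1b1a* (-0.50 ± 0.37) and *atp1a3b* (1.13 ± 1.08) were not called either. *atp1a1a.1* had 3866, 1414 and 2588 CPM in MTZ+ rapamycin libraries, against 3666, 5309 and 4148 CPM in MTZ- rapamycin libraries. The MTZ+ libraries spread widely, and with all libraries the log2 fold change was -0.67 ± 0.32 (adjusted p = 0.168). Without MTZ+ rapamycin replicate 1 it was -1.08 and called (adjusted p = 0.0218). That fit called 2 members, and its share of all genes called is not given. Without both MTZ+ libraries of replicate 2 the log2 fold change was -0.36 (adjusted p = 0.440). At 2dpi *atp1a1a.1* was the member called, with 2437, 3131 and 1515 CPM in MTZ+ rapamycin libraries, against 4483, 6907 and 6187 CPM in MTZ- rapamycin libraries. No library of one group reached the other, and the log2 fold change was -1.28 ± 0.30 (2.44-fold lower, adjusted p = 0.0102), where 14.4% of genes were called and 5.73% were called lower. The 7 other members had log2 fold changes of -1.54 to 0.74 there, with adjusted p of 0.135 or more. Of the RPE markers 2 of 9 were called lower in the same comparison, *tyrp1a* (2.20-fold) and *rpe65a* (2.11-fold), with sums of 38559 to 67927 CPM in MTZ+ rapamycin libraries, against 79604 to 118707 CPM in MTZ- rapamycin libraries. The Müller glia gene *glula* was 4.76-fold lower, with list sums of 2381 to 3581 CPM, against 9614 to 11066 CPM. The other genes of that list were not called, with log2 fold changes from -0.16 (*slc1a2b*) to 0.90 (*gfap*). Of the muscle markers, 1 of 7 was called lower. The part of these markers' cells in the fall of *atp1a1a.1* was not tested.

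Rapamycin against DMSO within ablated larvae was the comparison at the centre of the study. It used the same MTZ+ DMSO libraries as the ablation contrast, as the reference this time, so the values of both contrasts are not independent. At 4dpi, 4 members were called lower in MTZ+ rapamycin larvae and none higher, where 2.64% of all tested genes were called and 1.78% were called lower. *atp1a1b* had 33.2, 27.2 and 59.7 CPM in MTZ+ rapamycin libraries, against 158, 243 and 236 CPM in MTZ+ DMSO libraries. The groups were apart, with a log2 fold change of -2.40 ± 0.32 (5.27-fold lower, adjusted p = 0.00662). *atp1b3b* had 12.2, 10.5 and 27.4 CPM in MTZ+ rapamycin libraries, against 80.9, 162 and 104 CPM in MTZ+ DMSO libraries, and its log2 fold change was -2.78 ± 0.49 (6.89-fold lower, adjusted p = 0.0145). *atp1b4* had 16.3, 7.33 and 33.2 CPM in MTZ+ rapamycin libraries, against 63.2, 124 and 114 CPM in MTZ+ DMSO libraries. The rapamycin libraries of *atp1b4* spread more widely than those of the DMSO group relative to their mean, and its log2 fold change was -2.39 ± 0.56 (5.26-fold lower, adjusted p = 0.0405). *atp1a3a* had the widest gap of the 4, with a log2 fold change of -3.59 ± 0.51 (12-fold lower, adjusted p = 0.00731) between 1.63, 1.02 and 0.940 CPM in MTZ+ rapamycin libraries and 19.9, 16.5 and 7.16 CPM in MTZ+ DMSO libraries.

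The other tested members were not called in ablated larvae at 4dpi. *atp1b2a* had 15.9, 22.6 and 24.1 CPM in MTZ+ rapamycin libraries, against 34.9, 42.1 and 34.5 CPM in MTZ+ DMSO libraries. The groups did not overlap, but the log2 fold change of -0.83 ± 0.44 had an adjusted p of 0.337. *atp1a3b* had 29.5, 25.4 and 36.7 CPM in MTZ+ rapamycin libraries, against 23.9, 27.6 and 9.30 CPM in MTZ+ DMSO libraries (log2 fold change 0.60 ± 1.07, adjusted p = 0.835). The abundant genes had positive log2 fold changes that did not pass, 0.63 ± 0.32 for *atp1a1a.1* (adjusted p = 0.320) and 0.53 ± 0.37 for *atp1b1a* (adjusted p = 0.484). Their MTZ+ rapamycin libraries spread widely, from 2111 to 6632 CPM for *atp1b1a*.

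Some of these calls were lost without the pair of libraries with crossed names. That fit also has fewer libraries, and the cause of the loss was not tested. Without both MTZ+ libraries of replicate 2, *atp1a1b* was the 1 member called at 4dpi (-2.06, adjusted p = 0.0496), where 0.314% of genes were called, and the adjusted p was 0.0752 for *atp1a3a* (log2 fold change -3.38), 0.122 for *atp1b3b* (-2.21) and 0.207 for *atp1b4* (-1.82). Without the MTZ+ DMSO library of replicate 2 alone, 2 members were called, *atp1a1b* and *atp1a3a*, with adjusted p of 0.0519 for *atp1b3b* and 0.116 for *atp1b4*. The share of all genes called in that fit is not given, so its count describes the members only. *atp1b4* also missed the threshold with the replicate number as a block (adjusted p = 0.0561), in a fit of the compared groups only (0.0815) and without MTZ+ DMSO replicate 1 (0.0551) or 3 (0.106) or MTZ+ rapamycin replicate 1 (0.0772) or 2 (0.0908). Its direction was the same in each, and without MTZ+ rapamycin replicate 3 its log2 fold change was -3.05 (adjusted p = 0.0386). Müller glia markers fell alongside: their sum was 531 to 2189 CPM in MTZ+ rapamycin libraries, against 8526 to 11846 CPM in MTZ+ DMSO libraries, with 2 of 5 called lower (*glula* and *slc1a2b*) and none at 0. Neuronal markers summed to 10.9 to 26.8 CPM, against 80.4 to 177 CPM in MTZ+ DMSO libraries, with 1 of 8 called lower, and ganglion cell markers to 4.93 to 18.1 CPM, against 79.1 to 112 CPM, with 1 of 4 called lower. RPE markers summed to 18656 to 80085 CPM, against 25135 to 46133 CPM. The part of these markers' cells in the changes was not tested.

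At 2dpi no member was called for rapamycin in ablated larvae by edgeR's quasi-likelihood test, where 0.53% of all tested genes were called. The study's own test of these groups did list *atp1b4* and *atp1a3b* as lower with rapamycin. Its pathway list of lowered genes also held *atp1a1b*, *atp1b3b* and *atp1a3a*, so the calls differ between the study and the test used here. For *atp1a3a* the log2 fold change here was only -0.44 ± 0.82, inside the limit of 1 (adjusted p = 0.893 in edgeR's quasi-likelihood test). Why the study's list held *atp1a3a* was not tested. An unadjusted p under 0.05 was reached by 4 members, against 13.5% of all genes. DESeq2 called 3 members, where it called 3.27% of all genes with an adjusted p. *atp1b4* had 23.4, 23.8 and 18.4 CPM in MTZ+ rapamycin libraries, against 69.5, 112 and 86.5 CPM in MTZ+ DMSO libraries. Its rapamycin libraries were tight and apart from the DMSO libraries, and the log2 fold change of -2.01 ± 0.41 missed the limit narrowly (adjusted p = 0.050). *atp1b3b* had 16.4, 32.5 and 29.7 CPM in MTZ+ rapamycin libraries, against 82.2, 130 and 64.7 CPM in MTZ+ DMSO libraries (log2 fold change -1.80 ± 0.38, adjusted p = 0.0555). *atp1a1b* had 60.7, 88.7 and 26.0 CPM in MTZ+ rapamycin libraries, against 110, 343 and 164 CPM in MTZ+ DMSO libraries (-1.79 ± 0.51, adjusted p = 0.134). The 2 groups were apart for each of the 3. With a block for the replicate number, *atp1a1b* (-1.76, adjusted p = 0.0401) and *atp1b3b* (-1.74, adjusted p = 0.0456) were called, and without a filter on low counts *atp1b3b* (adjusted p = 0.0482) and *atp1b4* (adjusted p = 0.0473) were. *atp1a3b* had 18.3, 39.9 and 5.31 CPM in MTZ+ rapamycin libraries, against 111, 72.4 and 53.7 CPM in MTZ+ DMSO libraries, with a log2 fold change of -1.88 ± 0.82 (adjusted p = 0.348). Of the Müller glia markers, 1 of 5 was called lower, and the sum was 2381 to 3581 CPM in MTZ+ rapamycin libraries, against 5338 to 7875 CPM in MTZ+ DMSO libraries. Of the epidermal markers 1 of 5 was called higher. None of the 9 RPE markers was called, but all had positive log2 fold changes with rapamycin, from 0.67 (*best1*) to 2.79 (*lrata*). Their part was not tested.

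In unablated larvae at 4dpi rapamycin went with higher values of 2 members, *atp1b2a* and *atp1a1b*, and none was called lower, where 2.1% of all tested genes were called and 1.84% were called higher. The reference here, the MTZ- DMSO libraries of 4dpi, also entered the ablation contrast with DMSO, the interaction and the comparison of time points. Values of these contrasts are thus not independent. Mean *atp1b2a* was 3.59 CPM in that group, against 33.0 CPM in MTZ- rapamycin larvae at 4dpi. At 2dpi it was 30.4 CPM with DMSO and 31.3 CPM with rapamycin in MTZ- larvae. For *atp1a1b* these means were 7.81, 31.9, 25.4 and 35.7 CPM. *atp1b2a* had 61.2, 18.4 and 19.4 CPM in MTZ- rapamycin libraries, against 2.61, 4.79 and 3.38 CPM in MTZ- DMSO libraries. Replicate 1 stood well above the other rapamycin libraries, and all 3 were above the DMSO libraries (log2 fold change 3.25 ± 0.48, 9.54-fold, adjusted p = 0.00684). Without that library the log2 fold change was 2.39 (adjusted p = 0.00674). *atp1a1b* had 37.3, 22.9 and 35.7 CPM in MTZ- rapamycin libraries, against 8.92, 7.38 and 7.13 CPM in MTZ- DMSO libraries. This is a log2 fold change of 2.07 ± 0.32 (4.19-fold, adjusted p = 0.00801). *atp1b4* had 15.8, 6.61 and 15.6 CPM in MTZ- rapamycin libraries, against 3.41, 3.95 and 1.51 CPM in MTZ- DMSO libraries (2.14 ± 0.57, adjusted p = 0.0722), and *atp1b3b* had 28.1, 20.9 and 27.5 CPM, against 7.62, 3.62 and 13.1 CPM (1.68 ± 0.48, adjusted p = 0.0914). Both were apart between the groups without passing the test. DESeq2 called both, which made 4 members where it called 6.21% of genes, and single libraries decided them: *atp1b4* was called without MTZ- rapamycin replicate 2 (2.46, adjusted p = 0.050) and *atp1b3b* without MTZ- DMSO replicate 3 (2.22, adjusted p = 0.0485). *atp1a3b* had 35.5, 4.53 and 2.01 CPM in MTZ- rapamycin libraries, against 0.0421, 1.28 and 4.22 CPM in MTZ- DMSO libraries, which overlap (2.99 ± 1.17, adjusted p = 0.210). The log2 fold changes of *atp1a1a.1*, *atp1a3a* and *atp1b1a* were between -0.31 and -0.03, with adjusted p of 0.782 or more.

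Marker genes of other cells were higher in these unablated rapamycin libraries as well. Neuronal markers summed to 60.5 to 356 CPM in MTZ- rapamycin libraries, against 21.7 to 33.0 CPM in MTZ- DMSO libraries, with 1 of 8 called higher, and photoreceptor markers to 485 to 7863 CPM, against 86.7 to 497 CPM, with 2 of 8 called higher. Müller glia markers were called higher for 2 of 5 (*slc1a2b* and *fabp7a*), with sums of 9032 to 9357 CPM, against 9907 to 12589 CPM. Their part in the values of the pump genes was not tested. At 2dpi rapamycin called no member in unablated larvae by edgeR's quasi-likelihood test, where 0.0855% of genes were called. There 1 member, *atp1b4* (log2 fold change 1.1 ± 0.40, adjusted p = 0.481), had an unadjusted p under 0.05, against 7.54% of all genes, and DESeq2 called 0 members and 1.37% of genes.

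Whether the rapamycin effect differed between ablated and unablated larvae was tested as an interaction. At 4dpi, 5 members had a rapamycin effect that was lower in MTZ+ than in MTZ- larvae, where 3.32% of all tested genes were called and 2.75% were called lower. The interaction was -4.53 ± 0.80 on the log2 scale for *atp1b4* (adjusted p = 0.0137), -4.47 ± 0.68 for *atp1b3b* (adjusted p = 0.0103) and -4.47 ± 0.45 for *atp1a1b* (adjusted p = 0.00344). The rapamycin groups lay close together and the DMSO groups far apart: mean levels of *atp1b3b* were 16.7 ± 9.27 CPM in MTZ+ rapamycin and 25.5 ± 3.99 CPM in MTZ- rapamycin larvae (SD, n = 3 each), and 116 ± 41.7 CPM in MTZ+ DMSO and 8.12 ± 4.77 CPM in MTZ- DMSO larvae. *atp1b2a* had an interaction of -4.08 ± 0.64 (adjusted p = 0.0103), from rapamycin effects of -0.83 in MTZ+ and 3.25 in MTZ- larvae. Without MTZ- rapamycin replicate 1 the interaction of *atp1b2a* was -3.22 (adjusted p = 0.00841), and without MTZ+ rapamycin replicate 3 that of *atp1b4* was -5.19 (adjusted p = 0.0110). *atp1a3a* had an interaction of -3.28 ± 0.67 (adjusted p = 0.0249), from effects of -3.59 in MTZ+ and -0.31 in MTZ- larvae. The interaction was not called for *atp1a1a.1* (0.66 ± 0.46), *atp1b1a* (0.80 ± 0.52) or *atp1a3b* (-2.39 ± 1.55).

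Without both MTZ+ libraries of replicate 2, 2 interactions were called at 4dpi, *atp1a1b* (-4.13) and *atp1b3b* (-3.89), where 0.482% of genes were called, and the adjusted p was 0.0553 for *atp1b4*, 0.0560 for *atp1b2a* and 0.111 for *atp1a3a*. That of *atp1a3a* was also lost when single libraries were left out, in 7 of the fits (adjusted p between 0.0528 and 0.0624): MTZ- DMSO replicate 1 or 2, MTZ- rapamycin replicate 1, MTZ+ DMSO replicate 1 or 2 and MTZ+ rapamycin replicate 2 or 3. At 2dpi edgeR's quasi-likelihood test called no interaction among the members, where 0.0228% of genes were called. *atp1b4* had the largest, -3.12 ± 0.58 (adjusted p = 0.181), and DESeq2 called it, with 0.815% of all genes. An unadjusted p under 0.05 was reached by 3 members and by 7.64% of all genes.

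**Figure D3:**
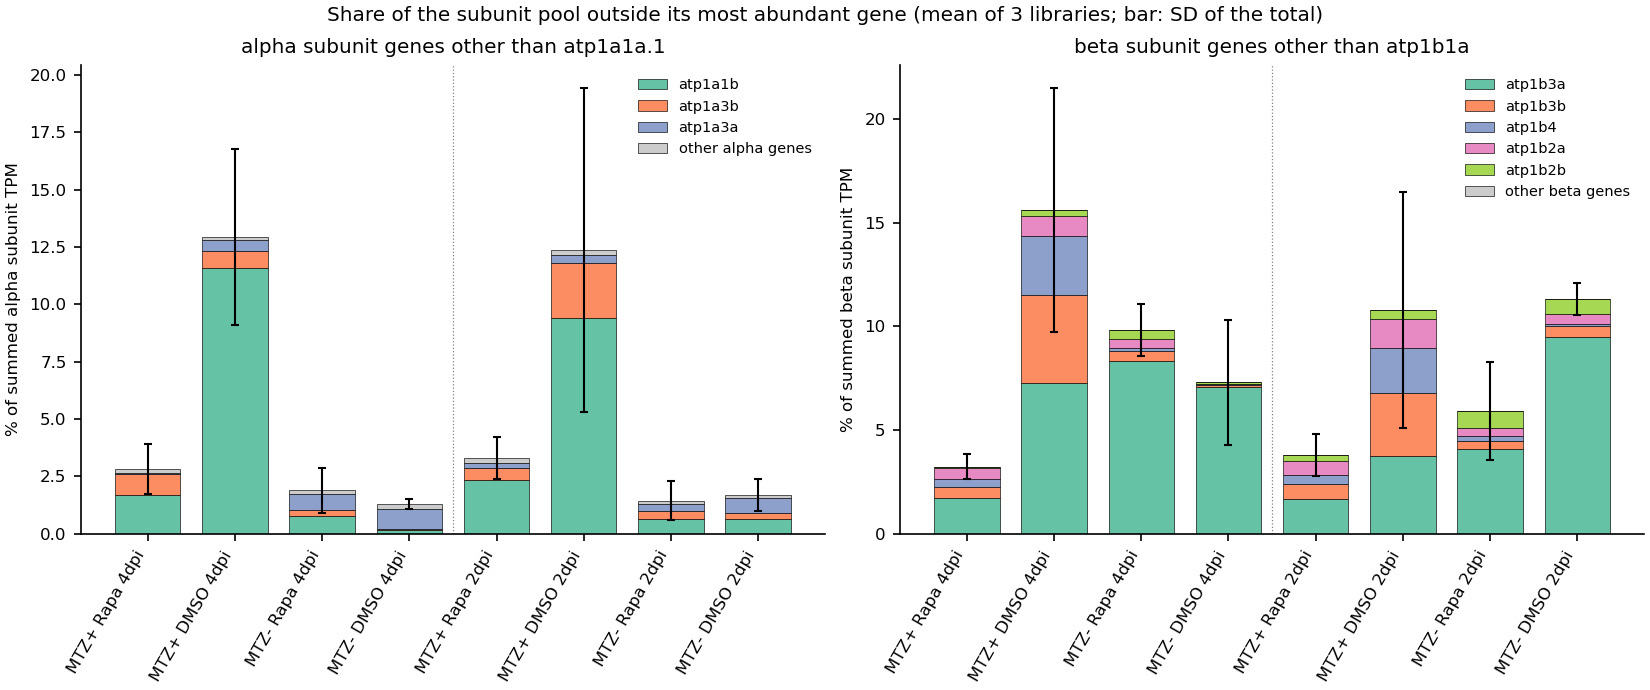
Share of the summed alpha subunit TPM outside *atp1a1a.1* (left) and of the summed beta subunit TPM outside *atp1b1a* (right) in the 8 groups, as means of 3 libraries stacked by gene, with the SD of the total as bars. The minor alpha genes reach 12.9% in MTZ+ DMSO larvae at 4dpi and 12.4% at 2dpi, and stay at 3.31% or less in every other group.

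Set beside each other in TPM, these changes altered the make-up of the pump's transcripts while its main genes stayed the main genes. Over all alpha subunit genes, *atp1a1a.1* made up 97.2 ± 1.1% of the summed TPM in MTZ+ rapamycin larvae at 4dpi, 87.1 ± 3.8% in MTZ+ DMSO larvae and 98.7 ± 0.23% in MTZ- DMSO larvae (SD, n = 3 each). *atp1a1b* took most of the remainder in MTZ+ DMSO larvae. Its share at 4dpi was 1.69 ± 0.74% in MTZ+ and 0.777 ± 0.30% in MTZ- larvae with rapamycin, and 11.6 ± 4.0% in MTZ+ (7.04 to 14.5%) and 0.175 ± 0.023% in MTZ- larvae with DMSO. At 2dpi it was 2.34 ± 0.55% in MTZ+ rapamycin larvae, 9.39 ± 6.9% in MTZ+ DMSO larvae and 0.620 ± 0.28% in MTZ- DMSO larvae. The summed alpha TPM itself was lower in ablated larvae, 1065 ± 110 TPM in MTZ+ DMSO and 1977 ± 116 TPM in MTZ- DMSO larvae at 4dpi. Without replicate 2, the MTZ+ libraries of replicates 1 and 3 held 98.4 and 96.6% *atp1a1a.1* with rapamycin and 91.5 and 84.7% with DMSO, and 0.871 and 2.30% *atp1a1b* with rapamycin and 7.04 and 14.5% with DMSO. These shares are a description with no test of their own.

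Among beta genes at 4dpi, *atp1b1a* held 96.8 ± 0.60% of the summed TPM in MTZ+ rapamycin larvae and 84.4 ± 5.9% in MTZ+ DMSO larvae. It held 90.2 ± 1.2% in MTZ- rapamycin larvae and 92.7 ± 3.0% in MTZ- DMSO larvae. *atp1b3b* had 0.510 ± 0.27% in MTZ+ rapamycin larvae, 4.24 ± 2.1% in MTZ+ DMSO larvae and 0.116 ± 0.071% in MTZ- DMSO larvae. *atp1b4* had 0.398 ± 0.24% in MTZ+ rapamycin larvae, 2.82 ± 1.4% in MTZ+ DMSO larvae and 0.0312 ± 0.013% in MTZ- DMSO larvae. Both made up a visible part of the beta pool in ablated DMSO larvae and little of it elsewhere. The other large beta gene was *atp1b3a*, which like *atp1b3b* encodes a beta3 subunit and is not among the 10 members, with 1.74 ± 0.17% in MTZ+ rapamycin larvae, 7.29 ± 2.6% in MTZ+ DMSO larvae and 7.06 ± 2.9% in MTZ- DMSO larvae. In replicates 1 and 3 alone, *atp1b1a* held 97.4 and 96.3% in MTZ+ rapamycin and 90.9 and 82.7% in MTZ+ DMSO larvae. *atp1b3b* held 0.216 and 0.731% with rapamycin and 2.08 and 4.35% with DMSO, and *atp1b4* 0.218 and 0.670% with rapamycin and 1.22 and 3.60% with DMSO. At 2dpi *atp1b1a* held 96.2 ± 0.99% in MTZ+ rapamycin, 89.2 ± 5.7% in MTZ+ DMSO and 88.7 ± 0.77% in MTZ- DMSO larvae. With DMSO its mean share was thus not lower in ablated larvae at 2dpi. There *atp1b3b* had 3.05 ± 1.7% in MTZ+ and 0.520 ± 0.25% in MTZ- DMSO larvae. *atp1b4* had 2.16 ± 0.85% and 0.107 ± 0.044%, and *atp1b3a* 3.76 ± 1.8% and 9.48 ± 1.1%.

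Between the time points, 3 of the 8 tested members were lower at 4dpi than at 2dpi in unablated DMSO larvae, and none was called higher. Dates in the raw file names differ between all 2dpi and all 4dpi libraries, so date and time point cannot be told apart. Of 18939 genes tested over all 24 libraries, 7% were called and 4.41% were called lower. *atp1b2a* had 2.61, 4.79 and 3.38 CPM at 4dpi, against 19.8, 45.4 and 25.9 CPM at 2dpi (log2 fold change -3.08 ± 0.61, adjusted p = 0.00294). *atp1a1b* had 8.92, 7.38 and 7.13 CPM at 4dpi, against 15.3, 34.1 and 26.8 CPM at 2dpi (-1.70 ± 0.45, adjusted p = 0.0192), and *atp1b3b* had 7.62, 3.62 and 13.1 CPM, against 21.3, 30.0 and 18.0 CPM (-1.51 ± 0.45, adjusted p = 0.0365). All 3 were apart between the time points. The call of *atp1a1b* was lost without MTZ- DMSO replicate 1, 2 or 3 of 4dpi (adjusted p = 0.0581, 0.0690 and 0.0628) or replicate 2 of 2dpi (0.0955). That of *atp1b3b* was lost without MTZ- DMSO replicate 1 or 2 of 4dpi (0.124 and 0.152) or replicate 1 or 2 of 2dpi (0.0631 and 0.148). *atp1b2a* kept its call in each. *atp1a3b* had 0.0421, 1.28 and 4.22 CPM at 4dpi, against 9.52, 17.7 and 24.9 CPM at 2dpi (-3.22 ± 1.13, adjusted p = 0.0798), and it was called without replicate 3 of 4dpi (-4.68, adjusted p = 0.0475) and by DESeq2 (-3.21, adjusted p = 0.0226), which called 11% of genes. *atp1a1a.1*, *atp1a3a* and *atp1b1a* had positive log2 fold changes of 0.11, 0.52 and 0.62 that did not pass, and all 4dpi libraries of *atp1b1a* were above all 2dpi libraries. Neuronal markers, 1 of 8 called lower, summed to 21.7 to 33.0 CPM at 4dpi, against 58.9 to 219 CPM at 2dpi. Photoreceptor markers, 2 of 8 called lower (*opn1sw1* 54.3-fold and *opn1sw2* 84.4-fold), summed to 86.7 to 497 CPM, against 1034 to 5738 CPM at 2dpi. Of the Müller glia (*fabp7a*) and RPE (*pmelb*) markers 1 each was called lower, and 2 of 5 epidermal markers were called higher, with sums of 782 to 1230 CPM, against 108 to 150 CPM at 2dpi. Their part was not tested.

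In ablated DMSO larvae no member was called between 4dpi and 2dpi by edgeR's quasi-likelihood test, where 0.475% of genes were called. None had an unadjusted p under 0.05, which 16.4% of all genes reached, and DESeq2 called 0 members and 3.75% of genes. The values of *atp1b4* (63.2, 124 and 114 CPM at 4dpi, against 69.5, 112 and 86.5 CPM at 2dpi) overlapped. The ablation difference was larger at 4dpi than at 2dpi for *atp1b2a* (by 2.48 ± 0.80 on the log2 scale), *atp1b3b* (1.83 ± 0.62) and *atp1a1b* (1.75 ± 0.62), with adjusted p of 0.0989, 0.110 and 0.127 that did not pass. Here 2.63% of all genes were called and no member by edgeR's quasi-likelihood test. An unadjusted p under 0.05 was reached by 3 members and by 18.5% of genes. DESeq2 called *atp1b2a* and *atp1b3b* and 7.36% of genes, the fit with the replicate number as a block called *atp1a1b* (1.84, adjusted p = 0.0421), and *atp1b3b* was called without MTZ- DMSO replicate 3 of 4dpi (2.37, adjusted p = 0.0490). The rapamycin effect in ablated larvae differed between time points for no member by edgeR's quasi-likelihood test or DESeq2, where 0.00528% and 0.697% of genes were called. With both MTZ+ libraries of replicate 2 at 4dpi left out, no member was called in these 3 comparisons either. With 9.45% of genes at an unadjusted p under 0.05, 1 member was, *atp1a3a* (-3.16 ± 1.02, adjusted p = 0.368).

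Of the 6 other subunit genes in the tables, *atp1b3a* was the one that changed repeatedly. It was lower in MTZ+ than in MTZ- larvae at 4dpi with rapamycin (78.8 ± 45.1 CPM in MTZ+ and 591 ± 153 CPM in MTZ- larvae, log2 fold change -2.83, adjusted p = 0.00202) and with DMSO (238 ± 39.4 CPM in MTZ+ and 586 ± 226 CPM in MTZ- larvae, -1.22, adjusted p = 0.0470). At 2dpi it was lower with rapamycin (71.7 ± 23.5 CPM in MTZ+ and 285 ± 103 CPM in MTZ- larvae, -1.96, adjusted p = 0.00228) and with DMSO (137 ± 45.7 CPM in MTZ+ and 536 ± 139 CPM in MTZ- larvae, -1.94, adjusted p = 0.00168). Its direction in DMSO larvae was thus opposite to that of *atp1b3b*, the other beta3 gene. The only other call among these 6 genes by edgeR's quasi-likelihood test was *atp1a1a.4* in the ablation contrast with DMSO at 4dpi (-3.68, adjusted p = 0.0297), at low counts and within the tandem alpha1 cluster. With rapamycin in MTZ+ larvae at 4dpi, *atp1b3a* (-1.57, adjusted p = 0.0669) and *atp1b2b* (-2.76, adjusted p = 0.242) were not called by that test. The study's own 4dpi pathway list of genes lowered by rapamycin held both, so for *atp1b3a* and *atp1b2b* the calls differ between tests. It also held the members *atp1a1b*, *atp1b3b* and *atp1a3a*, which were called lower here too.

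Proteins that bind or modulate the pump (FXYD and NKAIN families) were listed as 14 genes, of which 6 were found and 5 tested. No FXYD gene was called in any comparison. The most abundant of the 6 was *fxyd6l*, with group means of 1140 to 3327 TPM, and it overlaps another gene. Shares of all genes called in the comparisons below are those given above. *nkain4* was lower in MTZ+ DMSO larvae at 4dpi (log2 fold change -2.97, adjusted p = 0.00713) and at 2dpi (-2.12, adjusted p = 0.000494) and in MTZ+ rapamycin larvae at 2dpi (-1.46, adjusted p = 0.00675), and it was higher at 4dpi than at 2dpi in MTZ- DMSO larvae (1.94, adjusted p = 0.0221). It overlaps another gene, so its counts are uncertain. *nkain1* was higher in MTZ+ DMSO larvae at 4dpi (1.61, adjusted p = 0.00292) and in MTZ- larvae with rapamycin at 4dpi (1.66, adjusted p = 0.0148), and lower at 4dpi than at 2dpi in MTZ- DMSO larvae (-1.80, adjusted p = 0.00512). *nkain2* was lower in MTZ+ larvae at 4dpi with rapamycin (-4.60, adjusted p = 0.0480) and with DMSO (-4.14, adjusted p = 0.0485). Its MTZ+ libraries held few counts there, 0 to 43 with rapamycin and 0 to 35 with DMSO.

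Transporters and channels that use or return the pump's ions were listed as 17 genes, with 11 tested at 4dpi. In ablated DMSO larvae at 4dpi 2 were higher and 1 lower, where 14.3% of all tested genes were called higher and 9.14% lower. *slc4a4a*, a sodium bicarbonate cotransporter, was higher there (log2 fold change 4.91, adjusted p = 0.000216), lower with rapamycin in MTZ+ larvae (-3.34, adjusted p = 0.00663) and higher with rapamycin in MTZ- larvae (2.92, adjusted p = 0.00908), with an interaction of -6.27 (adjusted p = 0.00344). *kcnj10a*, an inward rectifier potassium channel gene of the kind that glia use to take up potassium, was higher in ablated DMSO larvae (9.24, adjusted p = 0.000770) and higher with rapamycin in MTZ- larvae (6.34, adjusted p = 0.0199), and it overlaps another gene. *slc6a6a*, a sodium-dependent taurine transporter, was lower in MTZ+ larvae in all 4 ablation contrasts, by log2 fold changes of -3.84 to -3.11. Among 19 listed P-type ATPases other than this pump, 17 were tested at 4dpi. Of these, 6 were higher and 1 lower in ablated DMSO larvae, against the same 14.3% and 9.14% of all tested genes. The smallest adjusted p were those of the calcium pump genes *atp2a2b* (2.90, adjusted p = 0.00122), *atp2b1a* (1.73, adjusted p = 0.00236), *atp2a3* (5.27, adjusted p = 0.00437) and *atp2a1* (3.39, adjusted p = 0.00855). With rapamycin in ablated larvae at 4dpi 1 of these 17 was called, *atp2b1b* (-3.63, adjusted p = 0.0231), where 2.64% of all tested genes were called.

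Genes with the nearest profiles were looked up for the most abundant alpha member, the most abundant beta member and *atp1b4*, as the root mean square difference between 8 group means of log2(CPM + 1) centred on their own mean, over 18843 genes. The nearest to *atp1b4* was another pump gene, *atp1a1b*, at a difference of 0.210, where the profile of *atp1b4* itself varies by 1.51 around its mean. Next came *zgc:165604* (0.246), *rhbg* (0.288), *rgl3a* (0.331) and *cahz* (0.396). *rhbg* encodes an Rh glycoprotein that carries ammonia and *cahz* a carbonic anhydrase. *atp1a1a.1* was nearest to *itgb1a* (0.112), *uxs1* (0.118), *mat2aa* (0.130), *hdac8_1* (0.139) and *nsfb* (0.140), and *atp1b1a* to *mia3* (0.0958), *efna2a* (0.111), *ngef* (0.117), *stk24b* (0.118) and *erbin* (0.121). The profiles of the abundant pair vary less, by 0.61 and 0.47. The 8 points of a profile share libraries and scaling across genes, so these values describe likeness only. The part of other cell types in these profiles was not tested.

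**Figure D4:**
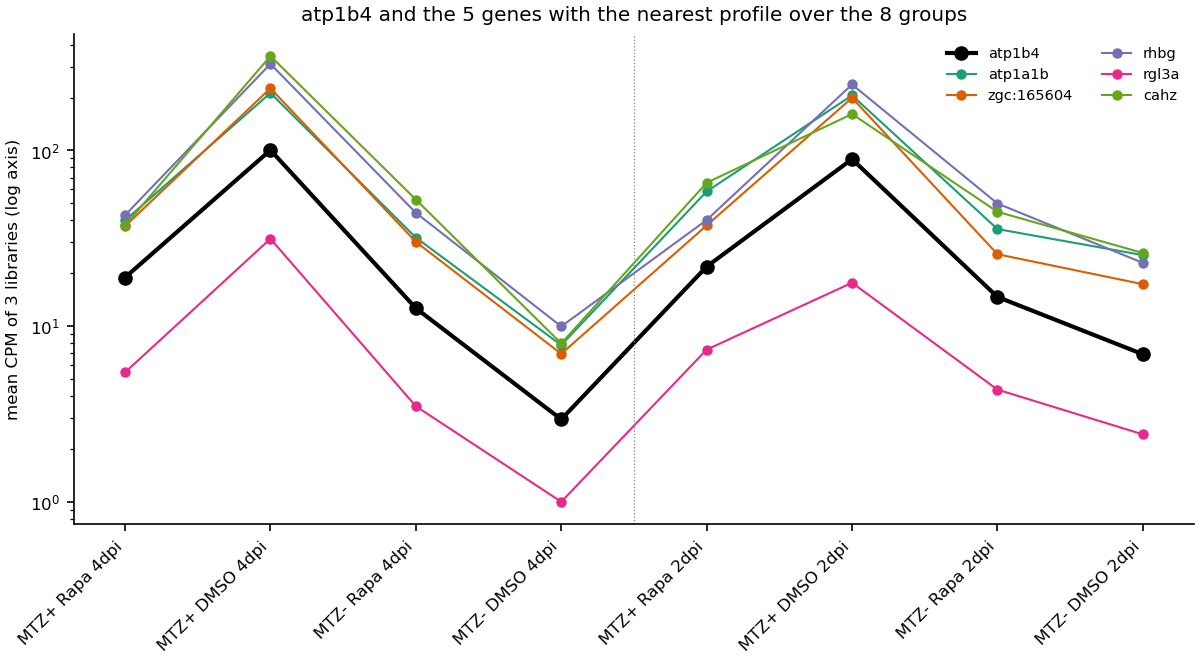
Mean CPM (log axis) of *atp1b4* (thick black line) and its 5 nearest genes in the 8 groups, 4dpi left and 2dpi right of the dotted line. Each gene peaks in MTZ+ DMSO larvae at both time points and is lowest in MTZ- DMSO larvae at 4dpi; *atp1b4* and *atp1a1b* measure 100.5 and 212 CPM at the 4dpi peak and 2.95 and 7.81 CPM at the low.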

How the data were processed

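Reads of 75 bp, paired and trimmed, were mapped to GRCz11 with CLC Genomics Workbench by the authors (version not given in the sources used here). The deposited values used here are each gene's total count, not normalized, and its TPM, which divides counts by gene length and scales each library to the same sum. The treatment of multi-mapped reads and of strand was not stated. RPKM and CPM columns of the authors (48 per-sample columns) and their comparison columns (fold changes and p-values) were not used. Replicates carried the numbers of the deposited labels, and whether they came from separate clutches was not stated, so p-values measure the spread between these libraries.

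Counts were scaled by TMM and tested with edgeR 4.0.16 (glmQLFit robust, glmQLFTest, R 4.3.3, limma 3.58.1) on genes that passed filterByExpr (minimum count 10), with the 12 libraries of a time point in one fit, or all 24 for comparisons of time, and group as the only term. Standard errors are the log2 fold change divided by the root of its F statistic. p-values were adjusted by Benjamini-Hochberg over all tested genes. CPM in the text are counts scaled by TMM over the 24 libraries. Reads were PCR-amplified without molecular identifiers, so the limit of 3 counts covers counting error only. The fits gave a biological coefficient of variation of 0.619 at 4dpi and 0.635 at 2dpi.

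The pairing comes from the raw file names, in which libraries with the same number carry the same date within a time point. Their deviations from the group means correlated with a mean r of 0.113 at 2dpi (-0.028 to 0.259 over 18 pairs) and 0.032 at 4dpi (-0.054 to 0.189 over 18 pairs), across genes.

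The members and gene lists were chosen with earlier results of these data known. All 10 members were named in the comparisons, with called genes of the other subunit and regulator lists, up to 4 called genes of the other lists and the 5 genes nearest in profile. Alternatives were DESeq2 1.42.0, RLE scaling, no filter on low counts, a mean filter on CPM, the tandem alpha1 genes summed, the replicate number as a block, the compared groups only and leaving out each library. Leaving out both MTZ+ libraries of replicate 2 at 4dpi was chosen after seeing the data. The fit was tried on simulated 2dpi counts for ablation with DMSO only, with few changed genes. That setting is simpler than these data and does not give the error rates of the tests here. Exact permutation of 3 libraries against 3 reaches a two-sided p of 0.1 at best, so tests come from the fits across all genes. Groups said to be apart had no overlapping libraries. No share of all genes with groups apart is given, so such statements describe the members only. No sequences were printed, since none of these genes had one in the references used here.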

Additional observations from a re-analysis of the deposited data

Results flagged for a closer look

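In 5 members the rapamycin effect at 4dpi differed between MTZ+ and MTZ- larvae by the test of the difference itself (edgeR's quasi-likelihood test, adjusted over all genes). Of all tested genes 3.32% were called in that test and 2.75% were called lower. Without both MTZ+ libraries of replicate 2, *atp1a1b* and *atp1b3b* stayed called. The adjusted p was then 0.0553 for *atp1b4*, 0.0560 for *atp1b2a* and 0.111 for *atp1a3a*. The call of *atp1a3a* was also lost when single libraries were left out. The difference, MTZ+ minus MTZ- on the log2 scale, was -4.53 for *atp1b4*, -4.47 for *atp1b3b*, -4.47 for *atp1a1b*, -4.08 for *atp1b2a* and -3.28 for *atp1a3a*. For *atp1a1b* all 3 MTZ+ rapamycin libraries were below all MTZ+ DMSO libraries and all 3 MTZ- rapamycin libraries above all MTZ- DMSO libraries, and the same held for *atp1b4*, *atp1b3b* and *atp1b2a*. For *atp1a3a* the MTZ- groups overlapped. No share of all genes with groups apart is given, so the separation describes these members only. Müller glia markers were called lower for 3 of 5 in the same test, neuronal markers for 4 of 8, photoreceptor markers for 3 of 8 and bipolar and ganglion cell markers for 1 of 5 and 1 of 4, and their part in these differences was not tested.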

How the results depend on the processing

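Of 1640 log2 fold changes of members recomputed under an alternative, 1524 kept their direction and their side of the threshold. Another 50 changed direction, all of them values that were called neither before nor after. DESeq2 called 5 members for ablation with DMSO at 2dpi, 3 for rapamycin in MTZ+ at 2dpi, 1 interaction at 2dpi, 4 for rapamycin in MTZ- at 4dpi and 2 for the ablation effect between time points, against 3, 0, 0, 2 and 0 in edgeR's quasi-likelihood test. Its shares of all genes called in these comparisons were 24.8, 3.27, 0.815, 6.21 and 7.36%. Without a filter on low counts 2 were called for rapamycin in MTZ+ at 2dpi (0.485% of genes), and *atp1a3b* was lost in the ablation contrast at 4dpi. The replicate block gave 2 calls for rapamycin in MTZ+ at 2dpi (1.22% of genes) and 1 for the ablation effect between time points (3.37%), and beyond these and the values of *atp1a3a*, *atp1a3b* and *atp1b4* given above it changed no other call. Without both MTZ+ libraries of replicate 2 at 4dpi, 1 member was called for rapamycin in MTZ+ and 2 interactions at 4dpi. That alternative has fewer libraries, and the cause was otherwise not tested.

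With each library left out in turn, calls ran from 3 to 4 for ablation with DMSO at 2dpi, 1 to 1 with rapamycin at 2dpi, 6 to 8 with DMSO at 4dpi, 1 to 2 with rapamycin at 4dpi, 2 to 4 for rapamycin in MTZ+ at 4dpi, 2 to 3 in MTZ- at 4dpi, 4 to 5 for the interaction at 4dpi, 1 to 3 between time points in MTZ- DMSO and 0 to 1 for the ablation effect between time points. They stayed at 0 for rapamycin in MTZ+ and in MTZ- at 2dpi, the interaction at 2dpi, the time points in MTZ+ DMSO and the rapamycin effect between time points. Shares of all genes called are not given for the fits without 1 library, here or above. Those fits have fewer libraries, so their counts describe the members only.

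Changes of direction among uncalled values were these, as log2 fold changes. With the compared groups only, *atp1b2a* had 0.00088 for ablation with rapamycin at 2dpi. With the replicate block, *atp1b3b* had 0.0028 and *atp1b2a* -0.00082 for rapamycin in MTZ- at 2dpi, and *atp1a3a* had 0.25 for the ablation effect between time points. Without both MTZ+ libraries of replicate 2, *atp1a1b* had -0.072, *atp1b4* -0.024 and *atp1b3b* -0.0072 between time points in MTZ+ DMSO, and *atp1b4* had 0.25 for the rapamycin effect between time points.

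With single libraries left out, ablation with rapamycin at 2dpi ran from -1.12 to 1.14 for *atp1a3b* and from -0.40 to 0.45 for *atp1b2a*. Rapamycin in MTZ+ at 2dpi ran from -0.11 to 0.41 for *atp1a1a.1* and from -1.13 to 0.45 for *atp1a3a*, and in MTZ- at 2dpi from -0.42 to 0.20 for *atp1b3b*, -0.80 to 1.01 for *atp1a3b* and -0.26 to 0.46 for *atp1b2a*. The interaction at 2dpi ran from -0.38 to 0.081 for *atp1b1a* and from -0.37 to 1.2 for *atp1a3a*. Ablation with rapamycin at 4dpi ran from -0.021 to 0.60 for *atp1a1b*, -0.035 to 1.02 for *atp1b4* and -0.93 to 0.14 for *atp1b2a*, and rapamycin in MTZ- at 4dpi from -0.18 to 0.052 for *atp1a1a.1* and -0.70 to 0.036 for *atp1a3a*. Between time points in MTZ+ DMSO, values ran from -0.55 to 0.0067 for *atp1b1a*, -0.26 to 0.61 for *atp1a1b*, -0.023 to 0.41 for *atp1b4*, -0.0062 to 0.64 for *atp1b3b* and -0.14 to 1.2 for *atp1a3a*. The ablation effect between time points ran from -0.65 to 0.69 for *atp1a3a*, and the rapamycin effect between time points from -0.13 to 0.68 for *atp1b1a*, -0.98 to 0.059 for *atp1b4* and -0.44 to 0.50 for *atp1b2a*. The 2 members with few counts, *atp1a2a* and *atp1b1b*, were too rare for a test at this depth.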
